A study of Mus musculus with 6 samples.

Results

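H3K27ac in a control paw of an adult mouse was compared, gene by gene, with H3K27ac in a mouse embryo of stage E11.5. The members of the comparison are the 18943 genes held by both sections, out of 19378 in the control paw; 435 paw genes were not in the embryo table and were left out. The comparison uses 2 of the 6 tissue sections of the series, which map a histone mark by position on arrays of barcoded DNA spots. In this assay Tn5, a transposase joined to protein A, is brought to the mark by an antibody, cuts the chromatin there, and the fragments take up the barcode of the spot beneath. The paw came from an adult mouse labelled as control at 42 days, the counterpart of a mouse with collagen-induced arthritis. It was fixed, decalcified, embedded in paraffin and cut at 4 µm near the talus, an ankle bone. The embryo was labelled wild-type, was taken whole, frozen, cut at 16 µm and fixed on the array. The sources used here give neither strain nor sex for either animal. Each group is 1 section, so there is no spread between animals, no test was made, and every difference below describes these 2 sections. Tissue, age and preparation differ together between them and cannot be told apart.

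H3K27ac is an acetylation of histone H3 placed on active promoters and enhancers, and its pattern differs from one cell type to another. The hind paw of an adult mouse holds keratinising skin, muscle, tendon, cartilage, bone with its osteoblasts and osteoclasts, marrow and fat. The midgestation embryo holds a dividing neural tube, somites, limb and facial buds, a beating heart and a liver that makes blood, and it carries active Hox clusters, whose genes give cells their position along the body.

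The deposited values are quantile-normalised signal, from which read numbers were recovered by the ranks of tied genes. The paw held 5981684 recovered reads in 554 spots, with a median of 10114.5 per spot (16 to 34488), and the embryo 548923 reads in 251 spots, with a median of 1972 (571 to 6318). The median shared gene held 146 reads in the paw and 12 in the embryo, so the embryo sets the precision for most genes. A level is a gene's mean reads over spots divided by the mean over the shared genes, which makes 1 the level of the mean gene. Ratios are log2 of the paw level over the embryo level after 0.1 was added to each. They are on this scale throughout, and the added 0.1 understates the change of low genes. Counting intervals are for the ratio without it and cover counting error only, since reads without molecular identifiers are not independent molecules. A section mixes many cell types, so fewer cells with the mark and less of it per cell cannot be told apart.

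The levels of the sections followed each other across genes, and most genes lay near equality. Spearman's rho between the levels was 0.738 over 18943 genes, a description of genes that share 1 library each. The log2 ratio had a median of 0.20, quartiles of -0.28 and 0.67 and a range from -7.59 to 7.70, and 77.3% of the genes lay within 2-fold. At least 2-fold higher in the paw were 2670 genes (14.1%), and at least 2-fold lower were 1637 (8.64%). Past 4-fold were 700 genes (3.7%) above and 564 (2.98%) below, and past 16-fold 135 and 116.

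The spread of the ratio was described by classes of mean level over both sections. These classes use the levels that make the ratio, and with 0.1 added a far ratio needs a high level in one section, so the shares below are fixed in part by the classes. Among the 694 genes with a mean level of at least 4 over the sections, 33.9% were at least 2-fold higher in the paw and 37.8% at least 2-fold lower, with a median counting SD of 0.13 on the log2 scale. Among the 4480 genes with a mean level between 0.5 and 1, those shares were 10.5% and 9.42%, with a counting SD of 0.34. Below a mean level of 0.25, 12.8% were 2-fold higher and 0.538% 2-fold lower, with a median ratio of 0.42 and a median of 3 embryo reads, which gives a counting SD of 0.85.

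**Figure D1:**
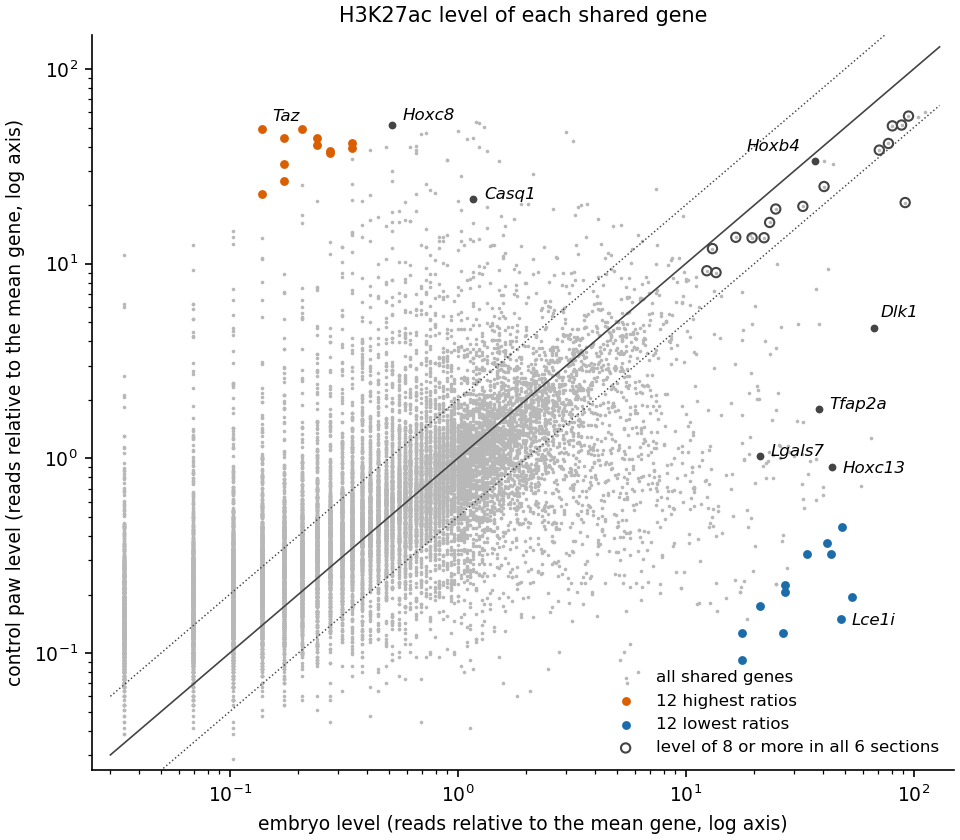
H3K27ac level of each of the 18943 shared genes in the control paw (vertical) and in the embryo (horizontal), both relative to the mean gene and on log axes; the solid line marks equal levels and the dotted lines 2-fold. The 12 highest and 12 lowest ratios (filled) lie far from the line on opposite sides, while 16 genes of high level in all 6 sections (open circles) lie below but close to it, apart from Cbr3 at -2.15.

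The highest ratio was that of Taz, which encodes tafazzin, an enzyme that remodels cardiolipin in mitochondria. It held 15484 reads in the paw and 4 in the embryo, which are levels of 49.3 and 0.138 and a log2 ratio of 7.70. Without the added 0.1 the ratio was 8.48, with an exact 95% counting interval from 7.12 to 10.36. Dnase1l1, a gene of the DNase I family that stands beside Taz, held 15517 and 6 reads, a ratio of 7.33, and had the same paw reads as Taz (a total within 5% and equal numbers in at least 60% of the spots with a read, which is what the same reads means below). The promoter windows of these neighbours, 250 bases before to 50 after the start, point in opposite directions and have 116 bases in common. They are shown because a read in the common stretch could be counted for either gene. Sequences are those of RefSeq on GRCm38.p6, which is not the build named for the files, and capitals mark a GC box (GGGCGG on either strand), which the Taz window holds outside the common stretch.
Taz, chrX:74282468-74282767, plus strand: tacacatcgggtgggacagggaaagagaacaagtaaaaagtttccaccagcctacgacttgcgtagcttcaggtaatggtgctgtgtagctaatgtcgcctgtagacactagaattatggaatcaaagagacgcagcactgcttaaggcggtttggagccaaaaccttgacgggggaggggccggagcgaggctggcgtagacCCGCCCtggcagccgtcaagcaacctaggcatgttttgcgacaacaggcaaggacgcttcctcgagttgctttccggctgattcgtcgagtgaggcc
Dnase1l1, chrX:74282284-74282583, minus strand: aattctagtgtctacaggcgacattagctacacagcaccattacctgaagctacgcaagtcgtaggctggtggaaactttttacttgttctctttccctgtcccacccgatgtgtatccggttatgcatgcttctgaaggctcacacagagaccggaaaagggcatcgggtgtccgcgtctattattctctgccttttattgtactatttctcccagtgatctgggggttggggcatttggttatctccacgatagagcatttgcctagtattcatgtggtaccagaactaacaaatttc

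Plscr4, a phospholipid scramblase, held 13983 paw and 7 embryo reads (7.03), and Lmf1, which matures lipases, 10220 and 5 (6.90). Tacr2, the receptor of neurokinin A, lay at 6.90 (12815 and 7 reads), and Slc17a6, the glutamate transporter of neuronal vesicles, at 6.56 (13136 and 10). Neither is in the lists of paw tissue used below. Isy1, a splicing factor gene with the paw reads of its neighbour Cnbp, lay at 6.67, Aak1, a kinase of clathrin coats, at 6.62, Tuba1c, an alpha-tubulin, at 6.62, and the centrosomal gene Cep44, with the paw reads of Fbxo8, at 6.48. H2ap lay at 7.34, with the paw reads of its neighbour H2al3, and the olfactory receptor gene Olfr1118 at 6.59 (7163 and 4 reads). The paw sums of all 12 are lower bounds, since part of their reads lay above the range that the ranks resolve. Their embryo sums were 4 to 10 reads, so the order among them is not resolved.

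Lowest was Lce1i, a gene of the late cornified envelope, which the upper layers of skin build. It held 47 reads in the paw and 1394 in the embryo, levels of 0.15 and 48.1 and a ratio of -7.59. A skin gene was thus far lower in the section of the adult paw. How much skin that section holds was not examined. Rapsn, which clusters acetylcholine receptors at the muscle synapse, followed with 61 and 1553 reads (-7.51), then Olfr1242 at -6.88 (40 and 772) and Gjb1, a connexin of myelinating Schwann cells and liver, at -6.69 (101 and 1261). Wfdc17 and Wfdc18, neighbours with the same embryo reads, lay at -6.53 and -6.29, the zinc finger gene Zfp689 at -6.49, the phosphatase gene Ppm1l at -6.48 and Eppk1, which encodes epiplakin, an epithelial binder of intermediate filaments, at -6.48. Gm19668, with the reads of its neighbour Gm9639, lay at -6.40, Grpel2, of the mitochondrial import motor, at -6.34, and the carbonic anhydrase gene Car12 at -6.27. The embryo sums of 7 of these 12 are lower bounds, and their paw sums were 29 to 140 reads. The promoter window of Lce1i is shown as that of the lowest gene; it holds no TATAAA, no CCAAT box and no GC box on either strand, and no CpG.
Lce1i, chr3:92778850-92779149, minus strand: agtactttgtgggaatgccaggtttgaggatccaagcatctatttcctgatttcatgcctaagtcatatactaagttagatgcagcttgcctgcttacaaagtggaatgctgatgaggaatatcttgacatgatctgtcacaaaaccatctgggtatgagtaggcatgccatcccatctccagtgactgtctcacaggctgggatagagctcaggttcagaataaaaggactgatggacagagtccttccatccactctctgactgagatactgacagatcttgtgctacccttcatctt

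The end genes had reads in most spots of the section where they were high. Reads of the 12 highest were found in 95.7% to 99.3% of paw spots, and reads of the 12 lowest in 76.1% to 98.0% of embryo spots. Read numbers above the resolved range of a spot are cut off, so how dense these genes were from spot to spot is not resolved. Over the 100 highest ratios a gene was found in a median of 94.2% of paw spots, and over the 100 lowest in 81.9% of embryo spots. The 100 highest held 11.95% of the recovered paw reads and the 100 lowest 11.3% of the recovered embryo reads. Of the 100 highest, 20 had a neighbour with the same reads in the paw, and of the 100 lowest 18 had one in the embryo.

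Where the 4 sections that the ratio did not use hold these genes, nearly all were low there. Embryo H3K4me3 and H3K27me3 hold 11 and 12 of the 12 highest and 11 each of the 12 lowest, the brain 6 and 7, and the arthritis paw 6 and 4. Levels in each such section are relative to the shared genes it holds. In the arthritis paw, which has the same tissue, mark and preparation as the control paw, the 6 held of the 12 highest had levels of 0.12 to 0.934. Taz lay at 0.12 there (58 reads), and Plscr4 at 0.243. Over the 100 highest the median level was 17.6 in the control paw, 0.345 in the embryo, 0.523 in the arthritis paw (54 held), 0.265 in embryo H3K4me3, 0.375 in embryo H3K27me3 and 0.643 in the brain. A level of 4 or more was reached by 1 of them in the arthritis paw and by 2 in embryo H3K4me3. The 100 lowest mirrored this. Their median level was 18.5 in embryo H3K27ac and 0.374 in the control paw, and 0.309 in embryo H3K4me3 and 0.325 in embryo H3K27me3, sections of the same embryonic stage. Lce1i lay at 0.0442 and 0.15 in those embryo sections (1 read in the former), and Rapsn at 0.0442 and 0.05.

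Most genes of very high level in one section of the pair were not so in any other section, and a few were high in all. A level of at least 8, a limit chosen after the levels were seen, was reached by 242 genes in the paw and 249 in the embryo, of which 36 were the same. Of the 206 genes that reached it in the paw but not the embryo, 186 (90.3%) reached it in none of the other 4 sections. Of the 213 that reached it in the embryo alone of the pair, 177 (83.1%) did so in no other. A section that does not hold a gene counts here as not reaching the level. Among the genes held by all 4 other sections, those counts were 129 of 147 (87.8%) and 126 of 159 (79.2%). Of the 36 that reached it in both, 5 (13.9%) did so in no other, and 16 genes reached it in all 6 sections. The median log2 ratio over these 16 was -0.68 (-2.15 to -0.13), and 1 of them was past 2-fold. Their sums are lower bounds in at least 1 section of the pair.

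Among the 16 was Cox6b1, a subunit of cytochrome c oxidase, with 16208 paw and 2566 embryo reads and levels of 51.6 and 88.6. The tropomyosin gene Tpm4 held 12046 and 2049 reads (-0.88), the tetraspanin gene Cd63 6002 and 720 (-0.38), and Snrpn, an imprinted gene of the splicing machinery, 2893 and 359 (-0.42). The one past 2-fold was Cbr3, a carbonyl reductase gene, at -2.15 (6479 and 2661 reads). These genes were singled out after their values were seen. Snrpn lay between 9.21 and 17.2 in all 6 sections, under 3 marks and in 3 tissues, and Cox6b1 between 31.7 and 93.2.

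**Figure D2:**
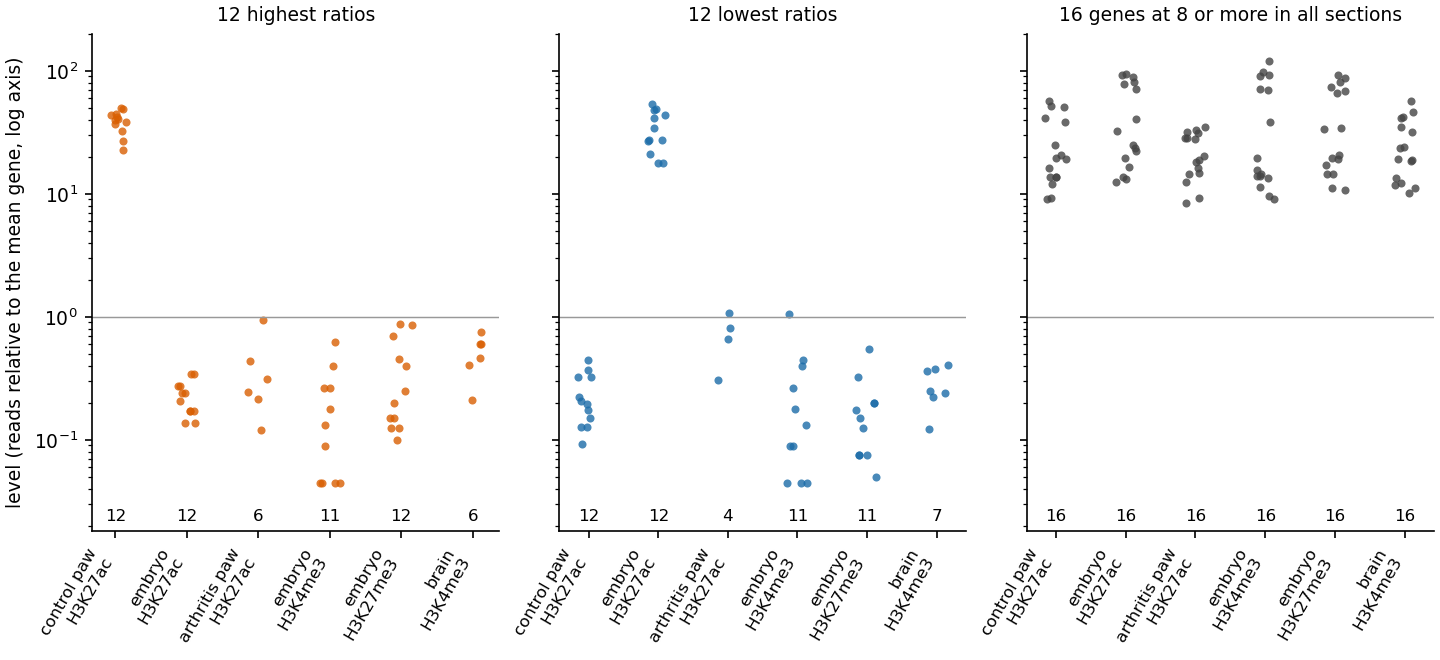
Level (log axis, relative to the mean gene) of the 12 highest ratios, the 12 lowest ratios and the 16 genes of level 8 or more everywhere, in each of the 6 sections; each point is a gene and the number above the axis gives the genes held. The 12 highest are high in the control paw alone and the 12 lowest in embryo H3K27ac alone, whereas the 16 genes stay above 8 throughout.

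A pair of sections that shares none with the ratio gave these genes about the background shares. The arthritis paw (H3K27ac) over the embryo's H3K4me3 section compares the same tissues, with another mark in the embryo. Over the 10875 genes held by all 4 sections, 23.9% were at least 2-fold higher and 7.17% at least 2-fold lower in that pair, around a median of 0.45. Of the 426 genes that were 4-fold higher in the control paw, 104 (24.4%) were 2-fold higher in the other pair and 29 (6.81%) were 2-fold lower, close to the shares over all genes. Of the 364 genes that were 4-fold lower, 89 (24.5%) were higher there and 37 (10.2%) lower. Spearman's rho between the ratios of the pairs was 0.0345 across genes.

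Levels across genes followed each other in every pair of the 6 sections, with a Spearman's rho from 0.61 (arthritis paw and embryo H3K4me3, 10875 genes) to 0.76. It was 0.738 for the control paw and embryo H3K27ac, 0.66 for the paws and 0.693 and 0.723 for embryo H3K27ac with embryo H3K4me3 and H3K27me3. The control paw correlated at 0.753 with embryo H3K27me3, a repressive mark, and at 0.76 with H3K4me3 of the adult brain. The arthritis paw correlated at 0.627 with embryo H3K27ac. The pairs rest on 9531 to 18943 genes and on sections of unlike depth.

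Gene lists for tissues of the adult paw and of the embryo did not part toward their section. The 241 genes of 11 lists for adult paw tissue and its blood cells had a median of 0.16, with 38 (15.8%) at least 2-fold higher in the paw and 25 (10.4%) lower. The 209 genes of 8 lists for embryonic tissue and growth had a median of 0.12, with 30 (14.4%) higher in the paw and 20 (9.57%) lower. Over all genes the median was 0.20 and the shares 14.1% and 8.64%. Both groups lay near the background in either direction, and these markers as groups did not tell the adult paw from the embryo.

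Epidermal genes make the keratins, junctions and envelope of skin. They lay at a median of -0.06, with 4 of 45 higher and 8 lower. Krt5, a keratin of basal cells, held 57 paw and 6 embryo reads (-0.13), Krt14, its partner, 60 and 13 (-0.92), and Krt10, of the upper layers, 97 and 8 (0.12). Levels of these defining keratins were between 0.18 and 0.45 in both sections, below the mean gene. The lowest member was Lgals7, a galectin of keratinocytes, with 324 and 614 reads, levels of 1.03 and 21.2 and a ratio of -4.23. Pkp1, a desmosomal plakophilin, lay at -2.93 (125 and 107 reads). Highest was Itga6, the integrin of hemidesmosomes, at 2.03, with 186 reads against 2 and a counting interval from 1.23 to 6.16; without 6 array columns named below it lay at 1.42.

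Adult muscle genes lay at 0.01, with 5 of 25 higher and 3 lower. The contractile genes Acta1 and Myh4, skeletal actin and a fast myosin, lay at -0.82 (158 and 28 reads) and 0.45 (41 and 2), and Ckm, muscle creatine kinase, at 1.51 (399 and 11). The highest member was Casq1, calsequestrin, the calcium store of fast fibres, with 6789 paw and 34 embryo reads, levels of 21.6 and 1.17 and a ratio of 4.09. Its paw sum is a lower bound, as are those of Acp5, Hnf4a, Rax and Hoxc9, and the embryo sum of Tfap2a. The level of Casq1 was 1.05 in the arthritis paw, so the 2 paws differed in it more than the arthritis paw and the embryo did. Ldb3, which ties alpha-actinin at the Z disc, went the other way at -3.51 (76 and 110 reads), as did Cacna1s, the voltage sensor of the fibre, at -2.40 (242 and 130). The promoter window of Casq1 is shown as that of the paw list gene with the largest ratio; it holds a GC box on the opposite strand.
Casq1, chr1:172219846-172220145, minus strand: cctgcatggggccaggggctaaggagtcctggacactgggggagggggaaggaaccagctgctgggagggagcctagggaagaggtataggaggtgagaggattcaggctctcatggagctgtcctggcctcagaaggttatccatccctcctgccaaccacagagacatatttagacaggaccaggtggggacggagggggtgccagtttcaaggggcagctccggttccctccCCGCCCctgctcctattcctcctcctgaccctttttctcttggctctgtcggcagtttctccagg

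Of the joint tissues, osteoclast genes had the largest share above 2-fold. They serve the cells that resorb bone, and 7 of 16 were higher in the paw (43.8%, against 14.1% over all genes) and 0 lower, while their median of 0.36 lay close to 0.20. The 7 were Traf6, which carries RANK signals (3.76, 984 and 4 reads), the integrin gene Itgb3 (3.50, 1673 and 11), the collagen-degrading protease gene Ctsk (2.82, 573 and 5), the fusion gene Dcstamp (2.09, 843 and 16), Nfatc1, the main transcription factor of the lineage (2.00, 224 and 3), the gelatinase gene Mmp9 (1.45, 84 and 1) and the chloride transporter gene Clcn7 (1.18, 113 and 3). Their embryo sums were 1 to 16 reads. Ctsk held 3.07 times its share of paw reads in the 6 columns and lay at 2.32 without them. Acp5, the acid phosphatase that stains osteoclasts, was the lowest member at -0.41 (245 and 31), and the receptor gene Tnfrsf11a (RANK) lay at 0.41. The count was also 7 without the 6 columns, in odd columns and in even columns, but the median was 0.00 in even columns. It was 4 of 16 with 1 added to the levels in place of 0.1, 2 of 10 with the arthritis paw, and 5 of 15, with 1 lower, over embryo H3K4me3. Of the 7, the arthritis paw holds 4: Nfatc1 at a level of 1.47, Dcstamp at 0.6, Itgb3 at 0.45 and Mmp9 at 0.10. Against the same embryo section, which both paws share in these ratios, the arthritis paw gave 2.94 for Nfatc1, 0.10 for Dcstamp, 0.21 for Itgb3 and 0.55 for Mmp9. Here the arthritis paw's level is relative to the 11066 shared genes it holds and the embryo's to all 18943. The count of 2 of 10 rescaled both to the genes held, as do the arthritis paw ratios further below. On the scale used here Tbx4 lay at -0.20, and with both rescaled at 0.21.

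Cartilage genes lay at 0.48, with 3 of 20 higher and 1 lower. Matn3, a matrilin of growth cartilage, was highest at 3.03 (403 reads against 2, interval 2.35 to 7.27), and Hapln1, which links aggrecan to hyaluronan, lowest at -1.90 (111 and 46). Matn3 held 3.23 times its share of paw reads in the 6 columns and lay at 2.50 without them. Sox9, the main cartilage regulator, and Col2a1, its collagen, lay at 0.23 and 0.50. Osteoblast genes lay at 0.15, with 3 of 18 higher and 1 lower. Runx2, the main bone regulator, lay at -0.87 (394 and 69) and Bglap2, of the osteocalcin family, at -1.20 (421 and 93). Fibroblast, synovium and tendon genes lay at 0.08, with 5 of 27 higher and 5 lower, from Htra4 at 2.13 (249 reads against 3) to Fap, the activation protein of stromal cells, at -3.25 (152 and 158). Pdgfrb and Thy1, surface markers of mesenchyme, both lay at -1.94.

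Fat, nerve sheath and vessels gave like counts. Adipocyte genes lay at 0.37 (3 of 14 higher, 1 lower), with the insulin-regulated glucose transporter gene Slc2a4 at 2.79 (2135 and 26) and the adiponectin gene Adipoq at -1.16 (536 and 114). Schwann cell genes lay at 0.44 (3 of 12 higher, 2 lower), with the myelin enzyme gene Cnp at 2.79 (1310 and 15) and Sox10, the lineage regulator, at -2.26 (229 and 112). Endothelial genes lay at 0.46 (2 of 17 higher, 0 lower), led by Kdr, a receptor of VEGF, at 2.66 (920 and 11). Kdr and Cnp held 3.56 and 3.54 times their share of paw reads in the 6 columns, and lay at 2.00 and 2.13 without them.

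Blood cell genes lay near the background. Neutrophil genes had a median of 0.01 (2 of 19 higher, 1 lower), macrophage genes of 0.09 (1 of 21 higher, 2 lower), lymphocyte genes of 0.20 (2 of 24 higher, 1 lower) and erythroid genes of 0.26 (2 of 17 higher, 0 lower). Cebpe, a factor of granulocyte maturation, lay at 3.26 (1305 and 10 reads) and at 2.58 without the 6 columns. The B cell surface gene Ms4a1 lay at 3.77 (2465 and 14). Cd14, a receptor of macrophages, lay at -1.83 (75 and 32). The globin gene Hba-a1, which fetal and adult red cells both use, lay at 0.60 (443 and 26) and shares its reads with Hba-a2, a near copy.

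Among the lists for the embryo, neural tube genes lay at 0.17, with 7 of 37 higher in the paw and 5 lower. Nkx6-2, a patterning gene of the ventral tube, was highest at 3.84 (574 reads against 1, interval 3.24 to 11.03), and Rax, of the eye field, lay at 3.19 (4907 and 47). Otx1 and Zic5, of the forebrain and dorsal tube, lay at -2.36 (361 and 183) and -2.18 (502 and 220). Pax6 and Sox2, defining genes of neural progenitors, lay at -0.29 (748 and 85) and -0.35 (376 and 45). Early neuron genes lay at 0.24 (5 of 31 higher, 2 lower), from the RNA-binding protein gene Elavl3 at 3.24 (2525 and 22) to Lhx5 at -1.86 (619 and 215). Somite and myogenic genes lay at 0.12 (2 of 23 higher, 2 lower). Mesp2, which sets somite borders, lay at -3.80 (100 and 166), Nkx3-2, of the sclerotome, at -2.60 (165 and 107) and Myog, of differentiating muscle, at 1.80 (643 and 15).

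Limb bud and facial genes lay at 0.07, with 5 of 31 higher and 5 lower. Tfap2a, which acts in the facial ectoderm and neural crest, held 566 and 1118 reads, levels of 1.80 and 38.6 and a ratio of -4.35. Dlx3, of the ectodermal placodes, lay at -2.95 (214 and 172) and Lmx1b, which gives the limb its dorsal side, at -2.45 (388 and 208). Of the genes that mark which limb is formed, Pitx1, of the hind limb, lay at 0.07 (479 and 42), Tbx4, of the hind limb, at -1.25 (721 and 162) and Tbx5, of the fore limb, at 1.46 (771 and 24, and 1.04 without the 6 columns). The promoter window of Tfap2a is shown as that of the embryo list gene with the lowest ratio; it holds a GC box.
Tfap2a, chr13:40734871-40735170, minus strand: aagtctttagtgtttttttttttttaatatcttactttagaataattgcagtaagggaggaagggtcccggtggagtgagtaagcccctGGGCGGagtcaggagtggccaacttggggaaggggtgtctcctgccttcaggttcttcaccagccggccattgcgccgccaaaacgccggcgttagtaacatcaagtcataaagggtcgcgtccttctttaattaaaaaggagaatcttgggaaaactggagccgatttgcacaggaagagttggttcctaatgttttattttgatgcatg

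Genes of fetal growth had the lowest median of the 26 lists, at -0.15, with 1 of 17 higher and 3 lower. With the deposited values their median was 0.34, above the 0.28 of all genes, so this order turns with the value used. Dlk1, an imprinted ligand of the Notch family made by fetal cells, held 1471 reads in the paw and 1950 in the embryo, levels of 4.68 and 67.3 and a ratio of -3.82. Its embryo sum is a lower bound. In the other embryo sections Dlk1 had levels of 11.1 (H3K4me3) and 14.5 (H3K27me3), in the arthritis paw 5.08 and in the brain 6.36, so it was above the mean gene in every section and highest in embryo H3K27ac. Igf2bp1, a fetal RNA-binding protein gene, lay at -2.30 (394 and 190), and Mest, an imprinted gene of fetal mesoderm, at -2.01 (554 and 215). Mest had levels of 1.63 and 1.82 in the other embryo sections, close to its 1.76 in the control paw. Igf2, the fetal growth factor gene, lay at -0.08 (1386 and 135), and Hmga2, a chromatin protein of growing tissue, at 2.33 (1986 and 34).

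Heart genes lay at -0.07 (2 of 20 higher, 0 lower), from the troponin gene Tnnt2 at 1.54 (312 and 8) to Gata4, a cardiac regulator, at -0.85 (570 and 97). Fetal liver genes lay at 0.21 (2 of 18 higher, 0 lower), with the hepatocyte regulator gene Hnf4a at 3.68 (5089 and 34) and Afp, the alpha-fetoprotein gene, at -0.49 (99 and 14). Cell division genes, active in most embryonic cells, lay at 0.17 (6 of 32 higher, 3 lower). The cyclin gene Ccne2 lay at -4.11 (262 and 465) and the helicase subunit gene Mcm5 at -2.94 (104 and 93), while the licensing gene Cdc6 lay at 2.88 (280 reads against 1, interval 2.20 to 10.00). Housekeeping genes lay at 0.23 (3 of 27 higher, 3 lower), from the ribosomal gene Rplp0 at 1.43 (581 and 18) to Tbp, the TATA-binding protein gene, at -3.04 (137 and 125), which had the embryo reads of its neighbour Psmb1. The 268 shared olfactory receptor genes, silent outside the nose and a few other cells, lay at 0.16, with 23 higher (8.58%) and 16 lower (5.97%). Ratios past 2-fold were thus also found among genes silent in most tissues, such as Olfr1118 and Olfr1242 of the 24 end genes.

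**Figure D3:**
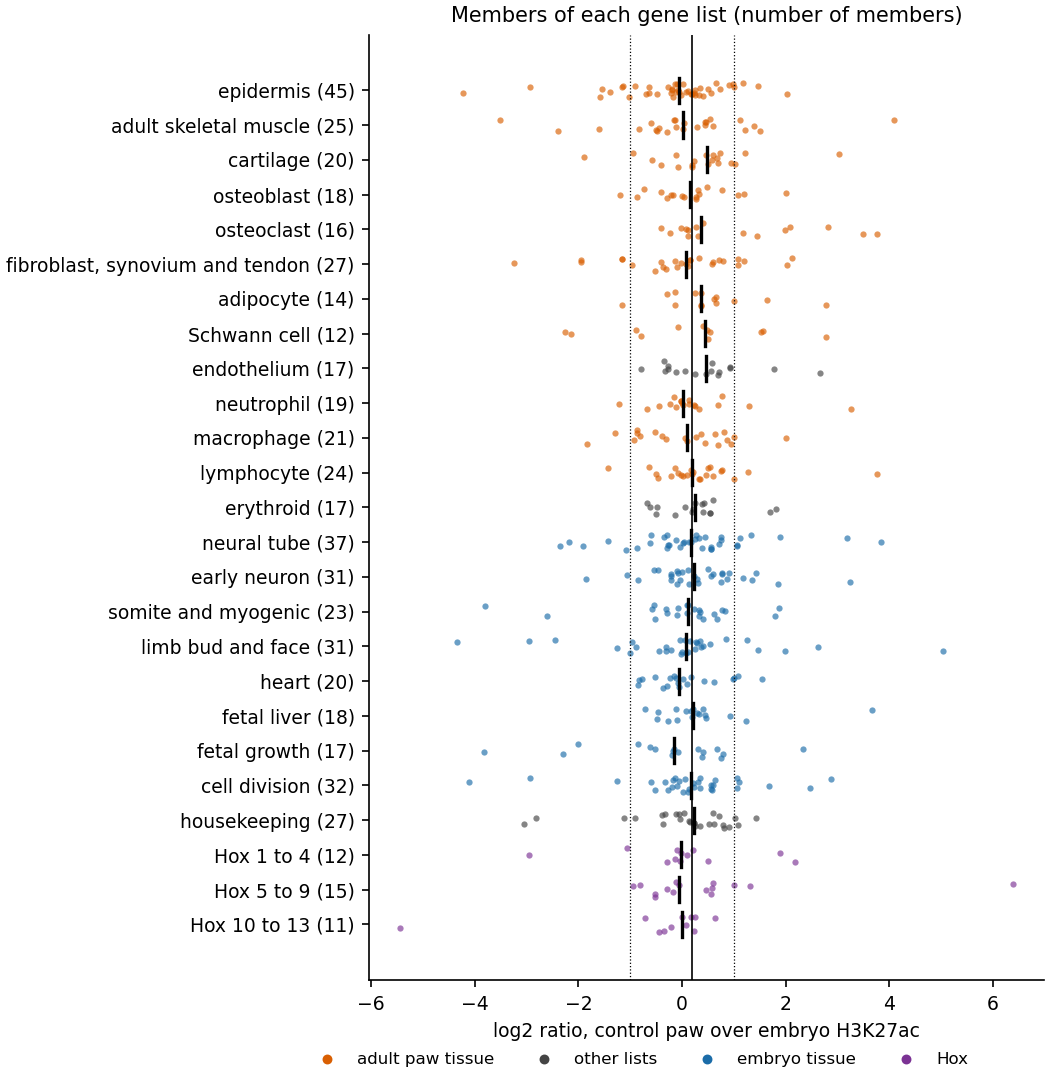
Log2 ratio (horizontal) of each member of 25 gene lists, with the number of members in brackets and a short bar at each list's median; the solid line marks the median of all genes, 0.20, and the dotted lines 2-fold. The medians run from -0.15 (fetal growth) to 0.48 (cartilage), and single members reach past 2-fold on both sides in lists of paw and of embryo alike.

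The 38 Hox genes had a median of -0.03, with 5 higher (13.2%) and 3 lower (7.89%). These shares lay near the 14.1% and 8.64% over all genes. By position in the cluster, groups 1 to 4, which act in the hindbrain and neck, lay at -0.03 (2 of 12 higher, 2 lower), groups 5 to 9 of the trunk at -0.06 (3 of 15 higher, 0 lower) and groups 10 to 13 of the hind body and distal limb at -0.00 (0 of 11 higher, 1 lower). Hoxc8 of the trunk was the highest, with 16285 paw and 15 embryo reads, levels of 51.8 and 0.518 and a ratio of 6.39. Its paw sum is a lower bound: completed from the list of values common to all spots, it was 32787 reads and the ratio 7.35. Its neighbours in the cluster, Hoxc9 and Hoxc6, lay at -0.29 (1353 and 153) and -0.80 (111 and 20). Hoxc13, which regulates keratins of hair and nail, was the lowest, with 285 and 1270 reads (the latter a lower bound) and a ratio of -5.45, next to Hoxc12 at 0.23 (488 and 38). In neither case did the neighbours share the ratio.

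Further from 0 among the Hox genes were Hoxa2 at 2.19 (852 and 15), Hoxa4 at 1.89 (1130 and 26), Hoxa7 at 1.31 (127 and 3), Hoxd3 at -2.96 (393 and 302) and Hoxa3 at -1.06 (1088 and 212). Hoxa5 lay at 1.00 (140 and 5), at the limit. The other 30 lay between -0.94 (Hoxb8) and 0.64 (Hoxa10). The genes of the autopod, the hand and foot, Hoxa13 and Hoxd13, lay at -0.44 (192 and 25) and 0.18 (226 and 18). Hoxb4 had a high level in each section that holds it, 33.5 in the control paw, 37.0 in embryo H3K27ac, 33.9 in embryo H3K4me3 and 34.7 in embryo H3K27me3, with a ratio of -0.14. Its sums are lower bounds in both sections of the pair.

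The ratio was checked against the row order of the control paw's genes, because ties had been ranked by it. With recovered reads, the median ratio over 10 equal stretches of the order moved from 0.25 in the first to 0.16 in the last (Spearman's rho -0.0369). With the deposited values the median was 0.26 in the first stretch, 0.85 in the last but one and -0.54 in the last. Their overall rho with the order was -0.00886 all the same, since the rise and the fall offset each other. The levels themselves showed it plainly: rho with the order was 0.422 in the paw and 0.33 in the embryo for deposited values, against -0.103 and -0.0618 for recovered reads. Across genes the ratios from reads and from deposited values correlated at 0.755.

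**Figure D4:**
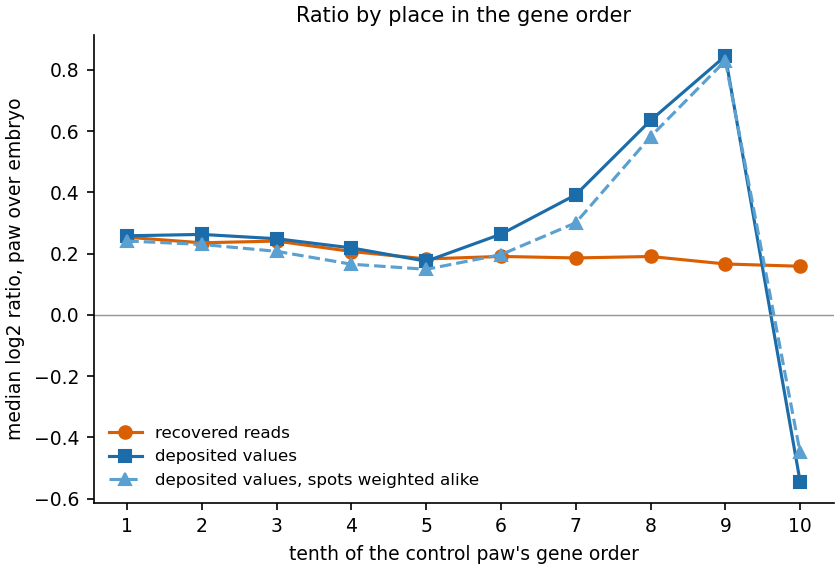
Median log2 ratio (vertical) in each of 10 stretches of the control paw's gene order (horizontal), with 1894 or 1895 genes in each; the dashed line gives deposited values with each spot scaled to its own total. Recovered reads stay between 0.16 and 0.25, whereas the deposited values climb to 0.85 in the last but one and drop to -0.54 in the last.

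Columns 1, 5, 9, 13, 17 and 21 of the paw array held 129 of the 554 spots and 12.9% of the reads. Some genes were denser there: of the 7093 genes with at least 200 paw reads, 528 held over 2 times and 34 over 4 times the share that all genes held there. Without these columns the ratios correlated at 0.993 with those of the whole paw, and 16 genes moved by over 1. Higher were then 2557 genes, 2442 of them also higher with the columns, and lower 1702, of which 1617 were also lower with them. In the 6 columns taken alone, 3307 genes were higher and 1678 lower. The 100 highest ratios of the 6 columns and of the others had 44 genes in common and the 100 lowest 84, with the same embryo section under both. The part that the array columns play in single ratios was not tested beyond these values.

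**Figure D5:**
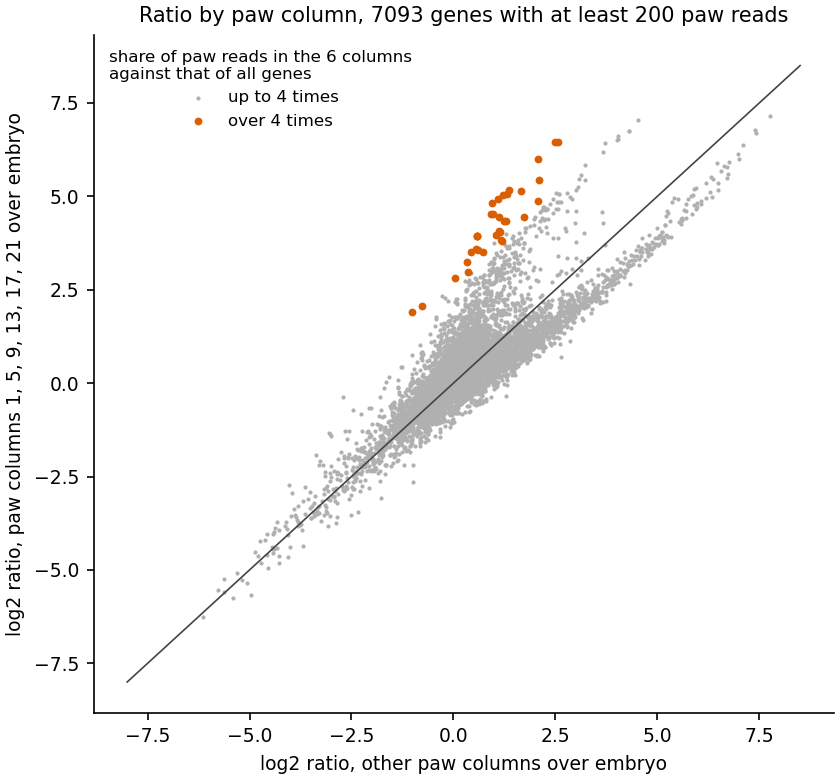
Log2 ratio of the 6 paw columns over the embryo (vertical) against that of the other paw columns over the embryo (horizontal), for the 7093 genes with at least 200 paw reads; the line marks equality. The 34 genes over 4 times their share (filled) lie well above the line, the highest genes lie below it, and the lowest lie along it.

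Most measures of promoter sequence, which the ratio did not use, differed little between the ends. A promoter window of 300 bases was found for 15006 shared genes. The GC share had a median of 57.3% for the 200 highest ratios, 58.3% for the 200 lowest and 58% for all. A TATA box (TATAAA, either strand) was in 10.5%, 12.5% and 11% of these windows in that order, CCAAT in 40%, 40.5% and 38.9%, GGGCGG in 48%, 53% and 52.2%, the AP-1 motif TGACTCA in 3.5%, 6.5% and 4.44%, and the E-box CANNTG in 65%, 65.5% and 67.4%. The number of CpG over that expected from C and G had a median of 0.590, 0.652 and 0.647 in the same order. Among the 200 genes nearest the median ratio it was 0.599, with TATAAA in 15% and the E-box in 74%. GC correlated with the ratio at 0.0437 (Spearman's rho) and with the levels at 0.254 in the paw and 0.181 in the embryo. The median level rose from 0.293 in the lowest of 5 classes of GC to 0.617 in the highest in the paw, and from 0.276 to 0.552 in the embryo.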

How the data were processed

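H3K27ac was profiled by position in 1 control paw section and 1 embryo section. The deposited values are quantile-normalised signal per gene and spot, as the names of the tables and their values show, and the embryo table's name marks it as cleaned. Bowtie2, featureCounts, MACS2, mm9 and hg19 are named per the submitters' processing notes, with versions and roles not given in the sources used here. Genes tied in a spot had been ranked by the order of the file, so reads per gene and spot were recovered from the drops in value along that order. The control paw's order was used for the embryo too. Counts were taken as exact up to the first one held by fewer than 5 genes in a spot. A gene with over 10% of its reads beyond is a lower bound (197 paw and 60 embryo genes). Recovered sums by rank equalled those of the list common to all spots at 98.8% of ranks in the paw and 50.8% in the embryo. Exactness was thus not shown for the embryo. Levels were mean reads over spots over the mean of the shared genes, and ratios log2 with 0.1 added. With 1 section per group no test was made; 95% intervals are exact (Clopper-Pearson). Named were, by rule, the 12 highest and 12 lowest ratios among genes with at least 100 paw or 20 embryo reads where higher, the 3 highest and 3 lowest of each list, all Hox genes, Pitx1, Tbx4 and Tbx5; some genes that the rule names are not reported here. Other genes, such as Krt5, Runx2, Pax6, Igf2 and the 16 of high level in all sections, were named after their values were seen. Members and lists were chosen with earlier results of these data known. Symbols were matched to RefSeq (18833 directly, 84 by synonym). Of 21 alternatives, 17 were fixed first and 4 added after seeing the data. Code was tested on simulated data. Python 3.11.15, numpy 2.4.6, scipy 1.17.1, pandas 2.3.3, numba 0.67.0 and matplotlib 3.10.9 were used.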

Additional observations from a re-analysis of the deposited data

How the results depend on the processing

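No paired analysis was possible because each group is 1 section, whose replicate number of 1 pairs nothing, so no section could be left out either. Depth limits most genes through the embryo, with a median of 12 reads. The count of genes 2-fold higher in the paw, 2670 as reported, was 4008 with the deposited values, 745 with 1 added in place of 0.1, 4173 with 0.02 added, 1432 of the 9074 genes of mean level 0.5 or more (15.8%, so the count fell with the genes tested), 9976 with a trimmed mean over spots and 4360 with the share of spots that hold a read. The lower count, 1637, was 2550 with deposited values less their running median along the file order, 681 with 1 added and 900 of 11066 genes with the arthritis paw (8.13%, likewise). The other 33 of 42 counts stayed within 1.5 times. For each gene the trimmed mean leaves out the 5% of spots with most of its reads. A gene with reads in no more spots than that has a trimmed level of 0, and the median embryo gene held 12 reads. The cause of these moves, that with the trimmed mean included, was not tested.

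For lists, the median less that of all genes was as follows where it moved. A value counted as moved where it left an interval set for each list around the reported one. These intervals are of unlike width, from -0.39 to 0.03 for epidermis but from -1.09 to 1.32 for Schwann cells and -0.13 to 1.89 for osteoclasts. A list with a wide interval could thus shift far without being counted. With embryo H3K4me3 in place of embryo H3K27ac it was 0.0751 for epidermis, -0.47 for cartilage, -0.21 for osteoclasts, 0.19 for neutrophils, 0.24 for limb bud and face and -0.56 for housekeeping genes. With the trimmed mean it was -0.72 for neural tube, -0.84 for limb bud and face, -0.37 for fetal liver, -0.92 for fetal growth, 0.43 for cell division, -0.99, -1.01 and -1.02 for Hox groups 1 to 4, 5 to 9 and 10 to 13, and -0.59 for olfactory receptors. Among genes of level 0.5 or more it was 2.11 for osteoclasts, 0.40 for lymphocytes, 0.59 for erythroid and 0.31 for fetal liver genes. For osteoclasts it was -0.18 in even columns. For olfactory receptors it was -0.15 in odd columns, 0.0431 by share of spots, -0.17 with the paw thinned and 0.0685 with deposited values of spots weighted alike, which was added after seeing the data. Of the other 522 list values, 69 lay over 0.2 from the reported one and 79 on the other side of the median of all genes. The Schwann cell median was -0.05 with deposited values (0.28 for all genes) and -0.30 with the arthritis paw (0.25 for all), and the osteoclast median was 0.94 with deposited values.

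A gene counted as moved where its ratio shifted by more than the distance to the further end of its counting interval. The least distance used was 0.1. That interval is for the ratio without the added 0.1, and its wider side was applied both ways. The distance is large for genes with few embryo reads, such as Nkx6-2 at 3.84 with an interval up to 11.03. Large shifts of such genes could thus go uncounted. Of the 97 named genes past 2-fold, 23 moved with deposited values, 56 with 1 added, 55 by share of spots, 44 with the trimmed mean and 21 in the 6 columns alone. With the arthritis paw, 34 of the 59 held moved, 6 turned sign and 19 did neither. Signs turned mostly when a section was exchanged. With embryo H3K4me3 as the embryo section, the control paw still being shared, the sign turned for Pdgfrb (0.87), Rapsn (0.98), Ccne2 (0.73), Sox10 (1.12), Mest (0.0395), Hoxc13 (0.26), Gjb1 (0.56), Rplp0 (-1.23), Cd14 (0.0307), Pkp1 (0.39), Wfdc18 (0.23), Car12 (0.50), Otx1 (2.11), Mmp9 (-0.0398), Thy1 (0.79), Wfdc17 (0.38), Cacna1s (1.03), Igf2bp1 (1.15), Lmx1b (1.81), Tbx4 (0.016), Zic5 (0.49), Lhx5 (1.08), Mesp2 (0.15), Fap (0.46), Lgals7 (0.0163), Dlx3 (1.22), Lce1i (0.75), Hoxa3 (0.56), Ppm1l (0.35) and Eppk1 (0.52). With the arthritis paw over the same embryo section it turned for Rplp0 (-0.41), Elavl3 (-0.14), Cnp (-0.56), Tbx5 (-0.0595), H2al3 (-0.69) and Tbx4 (0.21). Ckm turned to -0.0691 with deposited values less their running median, and Hoxa5 to -0.0006 with the paw thinned to the embryo's total. The cause was not tested.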

Other observations

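The genes below are among the densest in the 6 paw columns and were chosen after their values were seen. Wdr90 held 371 paw reads, 72.5% of them in those columns, which is 5.62 times the share of all genes, and its ratio of 2.65 was 1.22 without them. Emc3, of a membrane insertion complex, and its neighbour Fancd2, of DNA crosslink repair, had the same reads, with 5.596 and 5.524 times the share and ratios of 4.02 and 4.04, against 2.50 and 2.56 without the columns. Hmgn1, a nucleosome-binding protein gene, lay at 3.58 and at 2.08 without them, and Lct, the lactase gene of the gut, at 2.41 and 0.94. Each of these 5 genes held 1 to 6 embryo reads.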
